A study of Mus musculus with 2 samples.

Results

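The genes described here build the DNA replication machinery and supply it with deoxynucleotides. The set held 48 genes, chosen by gene symbol from a written list of origin-licensing factors, helicase subunits, polymerases, clamp proteins, nucleotide-synthesis enzymes and fork-associated chromatin proteins, and all 48 were found among the 16218 named genes of the deposited table. RNA came from mouse bone marrow-derived macrophages of C57BL/6J background, grown for 5 days with L929-conditioned medium as the source of macrophage colony-stimulating factor and stimulated with lipopolysaccharide (LPS, a bacterial cell wall component) at 10 ng/ml for 3 h. The libraries held 10836855 counts in TKO and 10764519 in WT. The TKO library came from mice carrying Lyz2-Cre with mir-17~92flox/flox, together with the null alleles mir-106b~25-/- and mir-106a~363-/-, and so lacking 3 related microRNA clusters. The WT library came from mice carrying Lyz2-Cre alone, so both genotypes carry the recombinase. Lyz2-Cre acts in myeloid cells, so the mir-17~92 cluster is lost in those cells, whereas the other clusters carry germline null alleles. Each genotype had 1 library and the files give no animal number, so no difference given here could be checked against replicates, and genotype and culture cannot be told apart.

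DNA replication starts when the origin recognition complex, Cdc6 and Cdt1 load the MCM2-7 ring onto DNA, a step called licensing. Cdc45, the GINS complex and Mcm10 then turn the ring into an active helicase, and primase, the replicative polymerases, the sliding clamp Pcna and its loader copy both strands. Many of these genes are transcribed in late G1 and S phase under E2F transcription factors. Macrophages grown from marrow divide in response to macrophage colony-stimulating factor, and LPS is known to halt that division. Mcm7 has a further role here, because its introns hold the mir-106b~25 cluster.

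In the gene models of GENCODE release M21, all 3 microRNA genes of that cluster lay within the intron between exons 13 and 14 of the longest Mcm7 transcript, which has 15 exons. Mcm7 is on the minus strand of chromosome 5, and the hairpins occupied 138165321 to 138165404 (Mir25), 138165523 to 138165610 (Mir93) and 138165737 to 138165818 (Mir106b) in GRCm38.p6, the RefSeq assembly equivalent to mm10. Their mature guide-strand sequences from RefSeq are shown because these are the molecules that the host gene normally carries, with the seed (bases 2 to 8) in capitals.
mmu-miR-106b-5p: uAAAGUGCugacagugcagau
mmu-miR-93-5p: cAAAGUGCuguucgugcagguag
mmu-miR-25-3p: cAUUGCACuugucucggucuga
The first pair share a seed with miR-17, the founding member of the largest family in the deleted clusters, and miR-25 has the seed of the miR-92 family.

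The Mcm7 transcript, which encodes a subunit of the replicative helicase, had 496 counts in the TKO library and 608 counts in the WT library. It was 1.23-fold lower in TKO (1.09 to 1.39). Here and below, folds are ratios of CPM, the counts scaled to a common library total, and the range after a fold is its 95% interval (exact Clopper-Pearson), which covers counting error only and no variation between animals. Because a count over a whole gene does not show whether an intron was removed, this value does not check the deletion. Among the counts of the 6 MCM2-7 genes, Mcm7 made up 15.5% in TKO and 15.4% in WT, an odds ratio of 1.00 (0.881 to 1.15). The odds interval included 1, so the depth did not show Mcm7 apart from the other subunits. Mcm7 shares 10.8% of its exonic bases with Ap4m1 and 2.16% with Cops6, both on the opposite strand. Ap4m1 had 35 counts in TKO and 44 in WT, and Cops6 had 463 and 556. The strand setting is not known, so their reads and those of Mcm7 cannot be told apart there.

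Most of the 48 genes had lower values in TKO, with log2 ratios from -0.97 (Dut) to 0.28 (Rfc3). All 48 passed the abundance filter, which asked for 1 CPM or more on average across the libraries. Of them, 42 had a log2 ratio below 0 (87.5%), where 57.4% of all 11662 measured genes did so. The interval lay wholly below equality for 27 members (56.3%), beside 20.2% of all measured genes, and wholly above equality for 0 members, beside 14.1%. The median log2 ratio was -0.34 over the members and -0.04 over all measured genes, where the log2 ratio is that of TKO CPM + 0.5 over WT CPM + 0.5. In summed counts the MCM2-7 genes had 3209 in TKO and 3949 in WT (1.24-fold lower, 1.18 to 1.30). The chromatin genes had the lowest summed ratio of the 10 role groups, at 54.8 CPM in TKO and 81.0 CPM in WT (1.48-fold lower, 1.33 to 1.64). Few members were far apart. At the call of at least 1.5-fold with an interval excluding equality, 5 of 48 were lower (10.4%), beside 5.26% of all measured genes, and 0 were higher, beside 2.83%. The 5 were Dut (chromosome 2, 125247248 to 125259049), Gins1 (chromosome 2, 150909556 to 150931280), Chaf1b (chromosome 16, 93883900 to 93906115), Tk1 (chromosome 11, 117815519 to 117826087) and Orc1 (chromosome 4, 108575705 to 108616030), with positions in GRCm38.p6. Among the 10407 genes within the members' own abundance range, 58.1% had a log2 ratio below 0, 19.4% had an interval below equality and 12.5% above, 5.43% were called lower and 2.83% higher. Summed over the 48 genes, the libraries held 15429 counts in TKO and 18872 in WT, a total 1.23-fold lower in TKO (1.21 to 1.26). In the authors' deposited table, 24 members were lower and 0 higher at an adjusted value of at most 0.05, where 14.7% of measured genes were lower and 10.5% higher, and that comparison too is between these 2 libraries and not between conditions. In bulk RNA, fewer dividing cells and less of each transcript per cell cannot be told apart.

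**Figure D1:**
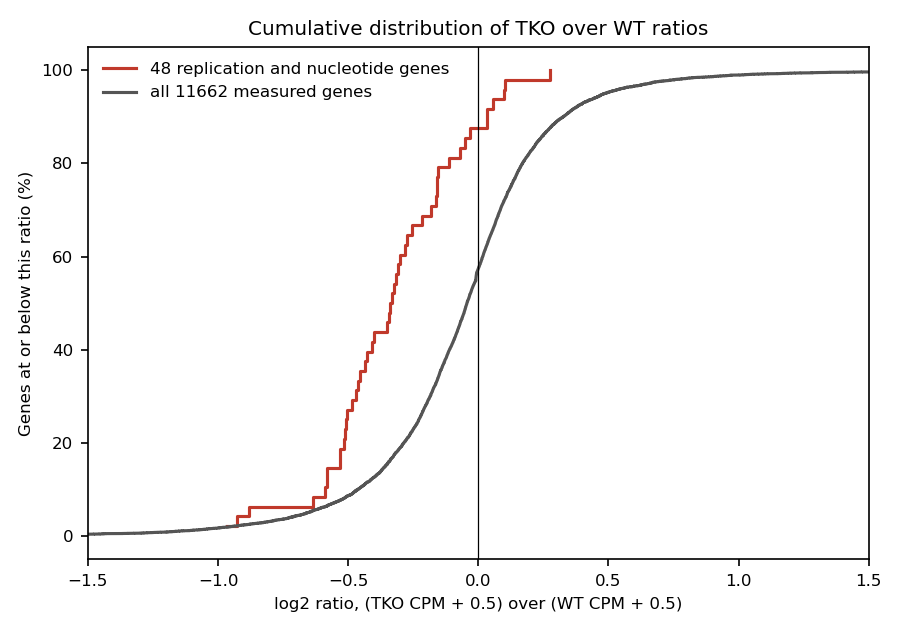
Cumulative share of genes (y axis, percent) against the log2 ratio of TKO CPM + 0.5 over WT CPM + 0.5 (x axis) for the 48 replication and nucleotide genes (red) and all 11662 measured genes (grey); genes beyond 1.5 in size are not shown. The red curve lies left of the grey one through its middle, with medians of -0.34 and -0.04, while the curves meet near the low end.

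Levels differed far more between genes than between libraries. By the authors' FPKM, which divides by transcript length, the members ran from 0.22 (Cdc6) to 166.14 (Pcna) in TKO and from 0.39 to 208.19 for the same genes in WT, with medians of 6.9 in TKO and 9.4 in WT. Pcna, the ring that tethers polymerases to DNA, stood first, followed by Rrm1 with 36.06 FPKM in TKO and 43.65 in WT, and Mcm6 with 25.33 and 36.05. The lowest were Orc1, Pole2 and Cdc6, each below 2 FPKM in both libraries. Across the 48 genes, the log2 ratio had a Spearman correlation of 0.12 with the mean log2 FPKM (Pearson 0.18), a description over genes of the same 2 libraries. The 12 members under 10 CPM were all below 0, with a median of -0.43, and the 36 more abundant members had a median of -0.31.

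**Figure D2:**
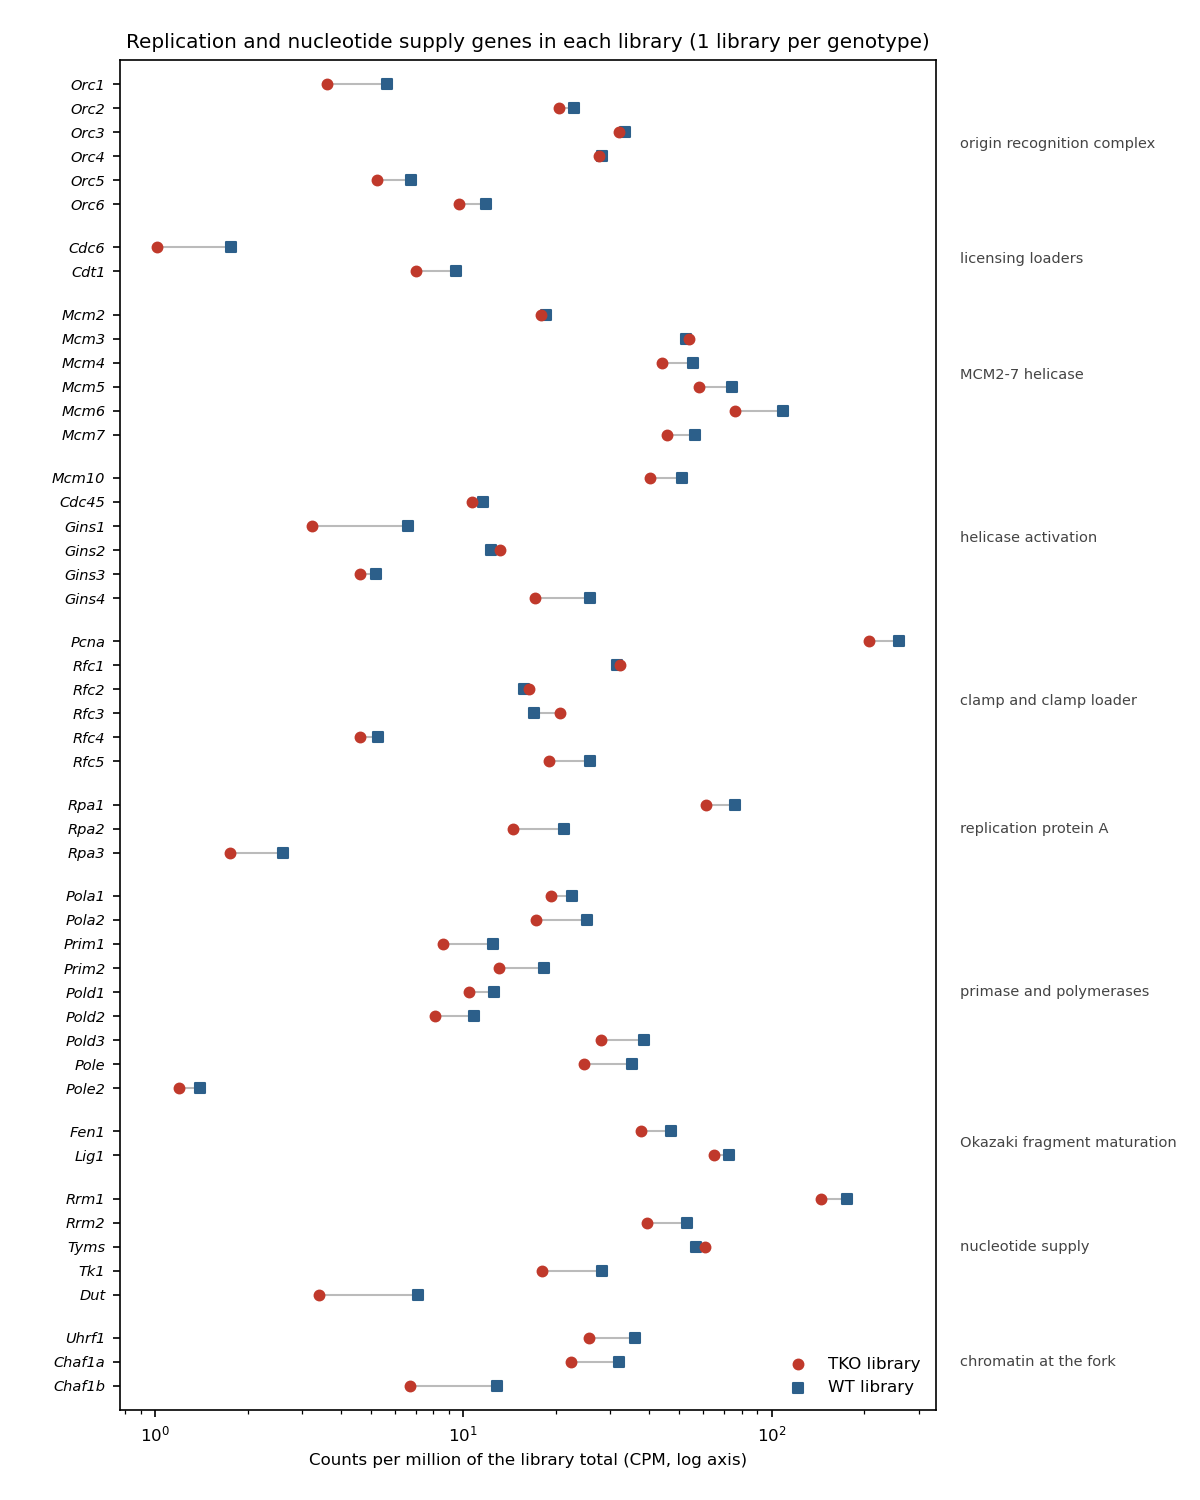
CPM of each member (x axis, log scale) in the TKO library (red circles) and the WT library (blue squares), grouped by role from top to bottom. The TKO circle lies left of the WT square for 42 of 48 genes, and the exceptions are Mcm3, Gins2, Rfc1, Rfc2, Rfc3 and Tyms.

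Of the 8 licensing genes, all had ratios below 1, beside 57.4% of all measured genes with a log2 ratio below 0. Orc1 alone had an interval that excluded equality, and 1 of 8 is under the 20.2% of all measured genes with intervals below it. With TMM or DESeq2 scaling, 1 member of the whole set moved above 0. Orc1, the subunit of the origin recognition complex whose level varies through the cell cycle in mammals, had 39 counts in TKO and 61 in WT. It was 1.57-fold lower (1.04 to 2.42), and the call of 1.5-fold was lost under other library scalings. Orc1 shares 11.9% of its exonic bases with Gm12743 on the opposite strand. The other subunits had ratios closer to 1 and intervals that included it. Against the rest of the complex, Orc1 had an odds ratio of 0.692 (0.446 to 1.06), so the depth did not show Orc1 apart from the other subunits. Orc2 had 221 counts in TKO and 246 in WT, Orc3 had 346 and 361, and Orc4 had 298 and 303. Orc2 shares 24.0% of its exonic bases with Nif3l1 on the opposite strand. Orc5 had 57 counts in TKO and 73 in WT, and Orc6 had 105 and 128. Cdc6, an ATPase that helps to load the MCM ring, had 11 counts in TKO and 19 in WT, too few to show a difference at this depth (ratio 0.575, 0.247 to 1.27). Cdt1, its partner in loading, had 76 counts in TKO and 102 in WT, with a ratio of 0.740 (0.543 to 1.01).

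Of the MCM2-7 helicase genes, 4 of 6 were lower with intervals that excluded equality (66.7%, beside 20.2% of all measured genes). Mcm6 was farthest apart, with 824 counts in TKO and 1172 in WT, 1.43-fold lower (1.31 to 1.57). Mcm5 had 632 counts in TKO and 802 in WT, 1.28-fold lower (1.15 to 1.42). Mcm4 had 477 counts in TKO and 598 in WT, 1.26-fold lower (1.12 to 1.43). Mcm2 and Mcm3 lay close to equality: Mcm2 had 194 counts in TKO and 200 in WT (ratio 0.964, 0.787 to 1.18), and Mcm3 had 586 and 569 (ratio 1.02, 0.910 to 1.15). The subunits are used in equal numbers in the ring, yet their counts did not differ in equal proportion between these 2 libraries. The subunits with the highest and the lowest ratio are given, picked after the values were seen, with intervals that cover counting error only. Mcm3 made up 18.3% of MCM2-7 counts in TKO and 14.4% in WT (odds ratio 1.33, 1.17 to 1.51), and Mcm6 made up 25.7% in TKO and 29.7% in WT (odds ratio 0.819, 0.736 to 0.910).

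The helicase activators ranged from a log2 ratio of -0.93 to 0.10. Gins1, a subunit of the GINS complex that binds MCM2-7 and Cdc45, had 35 counts in TKO and 71 in WT, 2.04-fold lower (1.34 to 3.16). Gins4 had 185 counts in TKO and 278 in WT, 1.51-fold lower (1.25 to 1.83), just short of the call once 0.5 CPM was added. Gins2 went the other way in value, with 143 counts in TKO and 132 in WT, and its interval included 1 (ratio 1.08, 0.843 to 1.37). Gins2 shares 70.7% of its annotated exonic bases with Gse1 on the opposite strand, and without a known strand setting the reads of these genes cannot be told apart. Gins3 had 50 counts in TKO and 56 in WT. Mcm10, a scaffold needed for helicase activation, had 438 counts in TKO and 553 in WT, 1.27-fold lower (1.12 to 1.44). Cdc45 had 116 counts in TKO and 125 in WT, too close to tell apart at this depth (ratio 0.922, 0.710 to 1.20).

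The clamp and its loader differed from each other. Pcna, the most abundant member, had 2239 counts in TKO and 2788 in WT, 1.25-fold lower (1.19 to 1.33). The clamp loader, replication factor C, was mixed. Rfc5 had 205 counts in TKO and 277 in WT, 1.36-fold lower (1.13 to 1.64). Rfc5 shares 15.4% of its exonic bases with Wsb2 on the opposite strand, which had 1484 counts in TKO and 1793 in WT. Without a known strand setting, reads of Rfc5 and Wsb2 cannot be told apart there. Rfc3 had 223 counts in TKO and 182 in WT, the highest ratio among the members at 1.22 (0.996 to 1.49), and with TMM or DESeq2 scaling its interval lay above equality. Rfc1, its large subunit, had 349 counts in TKO and 339 in WT, Rfc2 had 177 and 169, and Rfc4 had 50 and 57. None of these last 3 had an interval that excluded equality. Rfc2 shares 19.1% of its exonic bases with Lat2, and Rfc4 shares 13.4% with Eif4a2, both on the opposite strand. Replication protein A, which coats single-stranded DNA, was lower: Rpa1 had 666 counts in TKO and 821 in WT (1.24-fold, 1.12 to 1.38), Rpa2 had 157 and 228 (1.46-fold, 1.19 to 1.80), and Rpa3 had 19 and 28 (ratio 0.674, 0.356 to 1.25, not detectable at this depth).

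All 9 primase and polymerase genes had log2 ratios below 0, and the median was -0.46. Of them, 6 had intervals below equality (66.7%, beside 20.2% of all measured genes). Pole, the catalytic subunit of the leading-strand polymerase, had 267 counts in TKO and 380 in WT, 1.43-fold lower (1.22 to 1.68). Pola2, a subunit of the polymerase that extends primers, had 187 counts in TKO and 271 in WT, 1.46-fold lower (1.21 to 1.77). The primase subunits were lower by about as much, Prim1 with 93 counts in TKO and 134 in WT (1.45-fold, 1.11 to 1.91) and Prim2 with 141 and 196 (1.40-fold, 1.12 to 1.75). Of the lagging-strand polymerase delta, Pold3 had 304 counts in TKO and 416 in WT (1.38-fold lower, 1.19 to 1.60) and Pold2 had 88 and 117 (1.34-fold lower, 1.01 to 1.79, an interval that reached equality with TMM or DESeq2 scaling). Intervals included equality for Pola1 (209 counts in TKO and 242 in WT), Pold1 (113 and 135) and Pole2 (13 and 15). Pole2 shares 14.4% of its exonic bases with Gm49384 on the same strand. For Okazaki fragment maturation, the flap nuclease gene Fen1 had 409 counts in TKO and 507 in WT (1.25-fold lower, 1.09 to 1.43), and the ligase gene Lig1 had 705 and 784 (1.12-fold lower, 1.01 to 1.24, which also reached equality with those scalings). Fen1 shares 78.8% of its exonic bases with an antisense transcript, Gm10143.

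Of the nucleotide supply genes, 4 of 5 were lower with intervals below equality (80%, beside 20.2% of all measured genes) and Tyms was not. Dut encodes the enzyme that removes dUTP and so keeps uracil out of DNA. It had 37 counts in TKO and 77 in WT, 2.10-fold lower (1.40 to 3.19), the lowest ratio among the members. Tk1, the cytosolic thymidine kinase of the salvage route, had 195 counts in TKO and 304 in WT, 1.57-fold lower (1.31 to 1.89). Ribonucleotide reductase makes deoxynucleotides from ribonucleotides. Its large subunit gene Rrm1 had 1573 counts in TKO and 1892 in WT (1.21-fold lower, 1.13 to 1.30), and its S-phase small subunit gene Rrm2 had 428 and 573 (1.35-fold lower, 1.19 to 1.53). Tyms, which makes thymidylate by the other route, had 659 counts in TKO and 611 in WT (ratio 1.07, 0.958 to 1.20). Counts of Tyms, Rrm2, Mcm5, Mcm10, Orc4 and Pola2 were fractional in the deposited table, as happens when reads are divided between loci, so these 6 are less certain.

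The fork-associated chromatin genes were lower in all 3 cases, with intervals below equality (100%, beside 20.2% of all measured genes). Chaf1b and Chaf1a encode subunits of the chromatin assembly factor that places histones behind the fork. Chaf1b had 73 counts in TKO and 138 in WT, 1.90-fold lower (1.42 to 2.56), and Chaf1a had 243 and 345, 1.43-fold lower (1.21 to 1.69). Chaf1a shares 33.6% of its exonic bases with Ubxn6 on the opposite strand. Uhrf1, which brings the maintenance DNA methyltransferase to newly copied DNA, had 278 counts in TKO and 389 in WT, 1.41-fold lower (1.20 to 1.65).

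**Figure D3:**
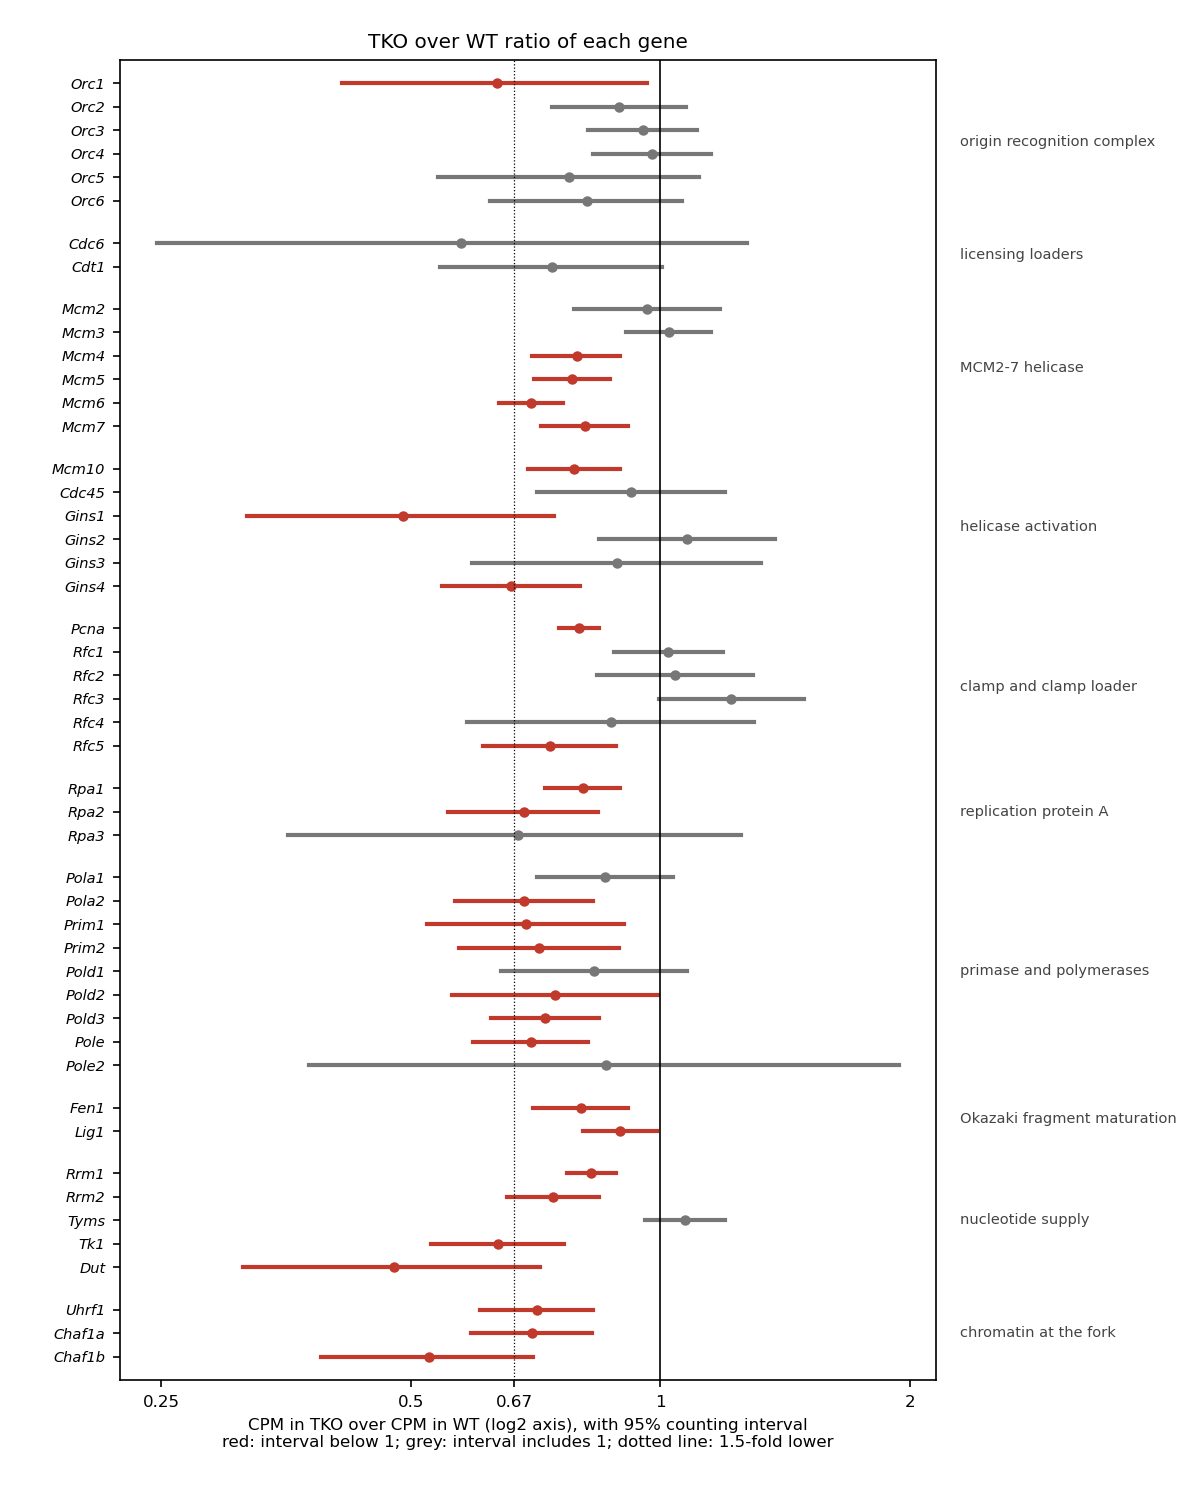
Ratio of TKO CPM to WT CPM for each member (x axis, log2 scale) with its 95% counting interval, grouped by role; red marks intervals below 1 and the dotted line marks 1.5-fold lower. The 5 genes called at least 1.5-fold lower are Dut, Gins1, Chaf1b, Tk1 and Orc1, and no interval lies wholly above 1.

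Subunits of 1 complex were then set against each other, a comparison chosen after the values were seen, because it does not depend on how the libraries are scaled. Of 33 subunits in 9 complexes, 7 had an odds ratio against the rest of their complex whose interval, covering counting error only, excluded 1. They were Mcm3 and Mcm6, Gins1, Gins2 and Gins4, and Rfc3 and Rfc5. Each rest includes the partners, so a shift in any subunit moves the odds of the others, and calls within a complex are not independent. Gins2 is thus part of the rest for Gins1 and Gins4. Gins2 and Rfc5 share exonic bases with Gse1 and Wsb2, as given above, so reads of those genes could enter the GINS and clamp loader odds. Gins2 made up 34.6% of GINS counts in TKO and 24.6% in WT (odds ratio 1.62, 1.21 to 2.18), and Gins1 made up 8.47% in TKO and 13.2% in WT (odds ratio 0.608, 0.385 to 0.947). Rfc5 made up 20.4% of clamp loader counts in TKO and 27.1% in WT (odds ratio 0.692, 0.560 to 0.855). No subunit of the origin recognition complex, replication protein A, polymerase alpha-primase, polymerase delta, ribonucleotide reductase or CAF-1 stood apart from its partners in this way, although intervals were wide for the low-count genes.

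**Figure D4:**
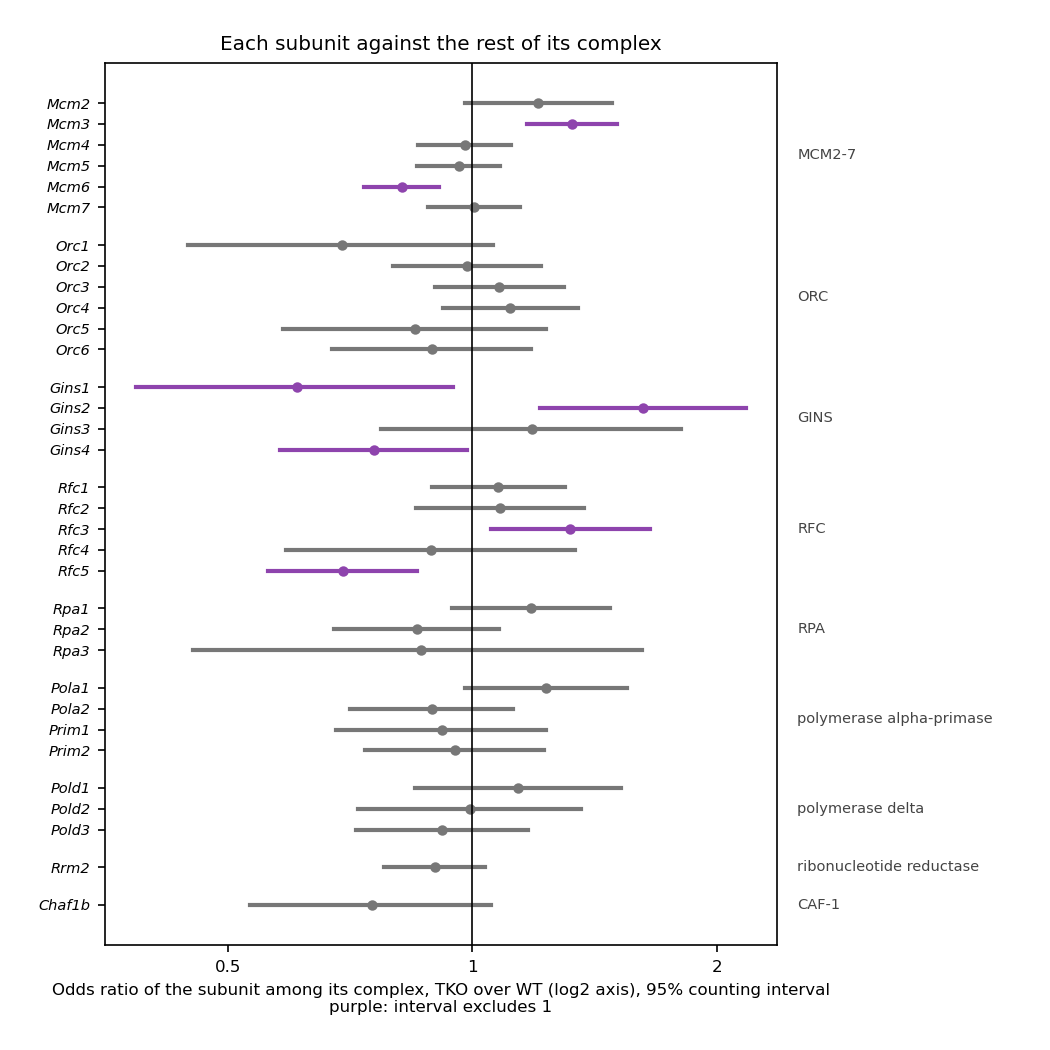
Odds ratio of each subunit's counts among the counts of its complex, TKO over WT (x axis, log2 scale), with 95% counting intervals; purple marks intervals that exclude 1. For complexes of 2 genes only the second gene is drawn, and Gins2 at 1.62 is farthest to the right.

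Genes that work with the members were taken from written lists. Beside each list stand the 20.2% of all measured genes with intervals below equality. Of 38 other replication fork genes, 16 had intervals below equality (42.1%) and 1 above, with a median log2 ratio of -0.29. Tipin, part of the fork protection complex, had 75 counts in TKO and 133 in WT (1.79-fold lower, 1.34 to 2.40), and Atad5, which helps to unload Pcna, had 97 and 156 (1.62-fold lower, 1.25 to 2.11). Mcm9, an MCM-like gene used in repair, was the gene of this list with an interval above equality. It had 148 counts in TKO and 98 in WT (log2 ratio 0.56, interval of the fold 1.15 to 1.96). Of 36 measured other nucleotide synthesis genes, 13 had intervals below equality (36.1%) and 0 above, and the median was -0.17. Ctps, a CTP synthase gene, had 47 counts in TKO and 88 in WT (1.88-fold lower, 1.31 to 2.75).

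Of 29 E2F and G1-S regulators, 13 had intervals below equality (44.8%) and 1 above, with a median log2 ratio of -0.25. Those farthest apart were Cdkn2d, an inhibitor of cyclin D kinases, with 112 counts in TKO and 218 in WT (1.96-fold lower, 1.55 to 2.48), and Ccne1, cyclin E1, with 47 and 91 (1.95-fold lower, 1.36 to 2.83). The atypical repressors E2f8 (332 counts in TKO and 502 in WT) and E2f7 (77 and 118) were 1.52-fold (1.32 to 1.75) and 1.54-fold (1.15 to 2.08) lower. E2f1, an activator of replication genes and a known target of the miR-17 family, had 158 counts in TKO and 174 in WT, with an interval that included equality (ratio 0.902, 0.723 to 1.13); it is named here for that background, with its value known. Of 22 mitotic genes, 18 had intervals below equality (81.8%) and 1 above, and the median of -0.36 was close to that of the replication genes. Of 12 measured repair partners of the fork, 3 had intervals below equality (25%, close to the share of all measured genes) and 0 above (median -0.11), the lowest being Exo1 with 16 counts in TKO and 40 in WT. Of 20 replication-dependent histone genes, 4 were measured, 2 of them lower: Hist1h2ap had 114 counts in TKO and 667 in WT, and Hist2h2aa1 had 15 and 40. These transcripts mostly lack a poly(A) tail and belong to near-identical families, so their values in poly(A) libraries are uncertain.

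**Figure D5:**
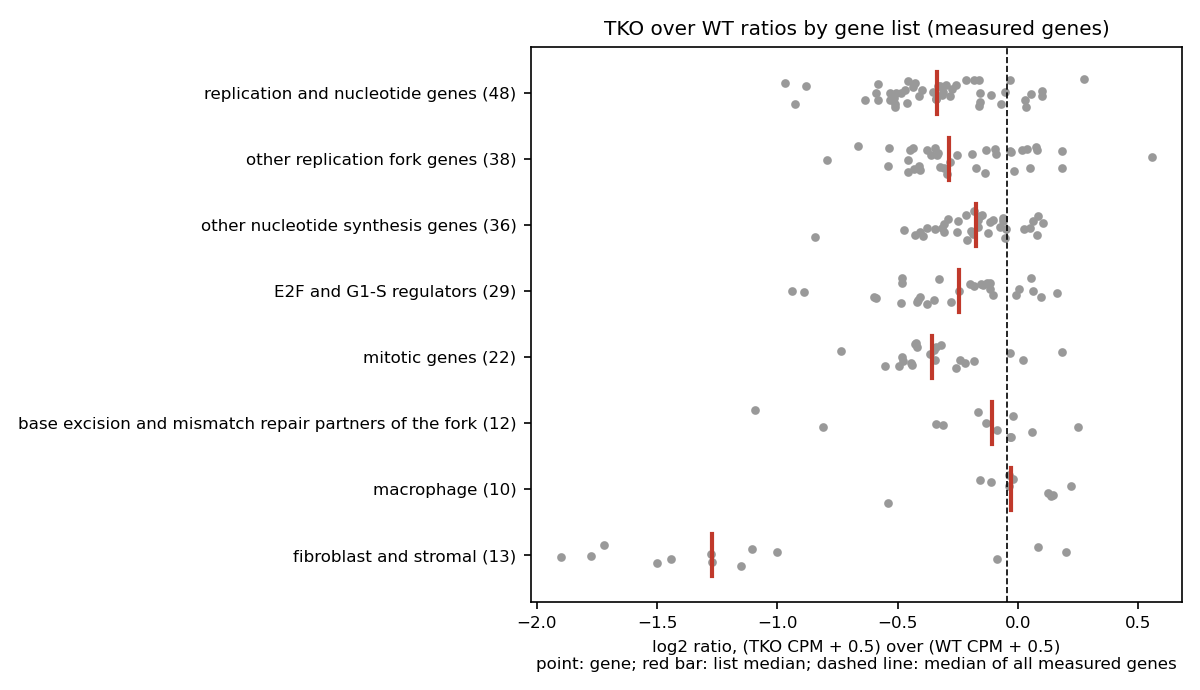
Log2 ratio of TKO CPM + 0.5 over WT CPM + 0.5 (x axis) of each measured gene (grey points) by list, with the list median (red bar) and the median of all measured genes (dashed line at -0.04). Replication, fork and mitotic lists have medians of -0.34, -0.29 and -0.36, the macrophage list -0.03 (just above 0 with TMM or DESeq2 scaling) and the stromal list -1.27.

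Markers of the cells that the cultures could hold were read beside these counts. All 10 macrophage markers were present, at a summed 8139 CPM in TKO and 7894 CPM in WT, with a median log2 ratio of -0.03 that lay just above 0 with TMM or DESeq2 scaling. Fibroblast and stromal markers differed: of 14 markers, 13 were measured. Of these, 10 met the 1.5-fold call in the lower direction (76.9%, beside 5.26% of all measured genes) and 0 in the higher (beside 2.83%). None of the 14 was at 0, and their summed level was 286 CPM in TKO and 701 CPM in WT. Col1a1, the main fibrillar collagen gene, had 550 counts in TKO and 2055 in WT, while Pdgfra had 30 and 32, Pdgfrb 510 and 478, and Thy1 39 and 33. Of 13 granulocyte and progenitor markers, 6 were measured, and all 13 together summed to 10.2 CPM in TKO and 14.1 CPM in WT; Prtn3 was at 0 in TKO and Ly6g at 0 in WT. Of 11 erythroid and megakaryocyte markers, 3 were measured, summing with the unmeasured ones to 63.5 CPM in TKO and 81.4 CPM in WT, most of it Tfrc and Pf4, and Klf1 was at 0 in TKO. T and NK cell markers summed to 9.32 CPM in TKO and 11.9 CPM in WT, and B cell markers to 160 and 151. Dendritic cell markers summed to 203 CPM in TKO and 38.3 CPM in WT, of which Itgax made up most. Endothelial markers summed to 158 CPM in TKO and 79.9 CPM in WT, of which Vwf and Kdr made up most. These 2 had intervals above equality. The other 3 of the 5 measured (Cdh5, Pecam1 and Egfl7) had log2 ratios below 0 with intervals that included equality, and the list median was -0.20. Stromal cells and progenitors can divide and so carry replication transcripts, and the part of these cell types in the lower replication counts was not tested.

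The sequences of the members were searched for sites of the deleted microRNAs. A site was a 7-base match to a seed in the longest annotated 3' UTR, and all 48 members had such a UTR. The miR-17 seed match GCACTTT was present in 6 members (12.5%), beside 14.9% of 11143 measured genes with a UTR. The miR-18 match GCACCTT was present in 2 members (4.17%, beside 9.36%), the miR-19 match TTTGCAC in 5 (10.4%, beside 13.5%), and the miR-25 and miR-92 match GTGCAAT in 0 (beside 7.65%). The median 3' UTR was 626 bases long in the members and 1205 bases in all measured genes, and shorter UTRs hold fewer matches of any kind. The 12 members with a site of any of the 4 families had a median log2 ratio of -0.29, and the 36 without had -0.35. The miR-17 matches are shown with 11 bases on either side and the match in capitals, since Mcm7 itself carries a match to the microRNAs in its own intron, and since Rrm2 has overlapping miR-17 and miR-19 matches.
Mcm7: tctcccatgctGCACTTTtttattctgcc
Mcm3: cccacccccagGCACTTTagtccaggaag
Rpa2: ctttcggaattGCACTTTccttcccttgt
Chaf1a: catgataaagaGCACTTTgtcctacattc
Orc2: cctgctggtctGCACTTTgcttgtgtgga
Rrm2: aaataaaattgGCACTTTgcacacacaca
Of these 6, Mcm3 had a ratio of 1.02 and none had an interval above equality, and Mcm7, Rpa2, Chaf1a and Rrm2 had intervals below it. Beside them stand 27 of all 48 members and 20.2% of all measured genes with intervals below equality. The 6 had a median log2 ratio of -0.36, and members without the match had -0.34. All 1656 measured genes with the match had a median of 0.01, beside -0.04 for all measured genes. Whether the matches bear on the ratios was not tested.

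Promoters were read to describe what the members share in sequence. RefSeq promoter windows (250 bases before to 50 after the start, GRCm38.p6) were found for 41 members, 7 of them with more than 1 window. The letters TTTNNCGC, an E2F-like pattern, were present on either strand in 17 of the 41 (41.5%), beside 9.86% of 9352 measured genes with a window and 5.17% of all 32851 windows. CCAAT was present in 25 members (61.0%, beside 43.1% of measured genes) and TTTGAA, the core of the element called CHR, in 5 (12.2%, beside 14.6%). Members with the E2F-like letters had a median log2 ratio of -0.26 and those without had -0.34, and whether the letters bear on the ratios was not tested. The stretches of the MCM genes that hold the letters are shown to set Mcm6, the lowest of the ring, beside Mcm3, which did not differ detectably. Capitals mark the matches, which overlap each other in Mcm5 and Mcm6, and the sequences run 5' to 3' on the gene's strand.
Mcm6 (chr1:128359715-128359845, minus strand): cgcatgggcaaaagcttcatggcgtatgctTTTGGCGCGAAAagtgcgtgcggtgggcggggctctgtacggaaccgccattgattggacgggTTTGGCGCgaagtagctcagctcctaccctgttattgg
Mcm5 (chr8:75109326-75109397, plus strand): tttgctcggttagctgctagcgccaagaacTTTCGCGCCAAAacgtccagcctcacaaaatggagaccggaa
Mcm7 (chr5:138172011-138172078, minus strand): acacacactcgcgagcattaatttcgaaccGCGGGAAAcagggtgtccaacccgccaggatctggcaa
Mcm3 (chr1:20820263-20820323, minus strand): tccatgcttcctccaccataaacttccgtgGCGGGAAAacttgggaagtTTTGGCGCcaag
Mcm6 had 3 matches in its window, and Mcm3, Mcm5 and Mcm7 had 2 each, of which the first is shown for Mcm7. The MCM gene with the lowest ratio and the MCM gene nearest above equality both carried the letters, and Mcm2 (ratio 0.964) carried none in its window. Mcm4 had no window to read. Of the members at least 1.5-fold lower, Orc1 held the letters, and Chaf1b, Dut and Tk1 had windows without them. Gins1, the remaining called member, had no window.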

How the data were processed

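Polyadenylated RNA of 2 libraries was sequenced, and the members and gene lists were chosen with earlier results of these data known. Per the submitters' processing notes, the tools were RSEM 1.2.12, HISAT2 2.0.4 and Bowtie2 2.2.5 and the build mm10; the role of each tool, the annotation and the strand setting are not given in the sources used here. Expected counts and FPKM for each gene, made by the authors, form the deposited table, in which 0.01 FPKM stands for 0. The authors' log2 ratio is that of TKO over WT FPKM, per the file headers. The deposited p-value and adjusted value (treated as a score, since it reaches 1.04) come from a test that the sources do not name. Gene lengths were not used.

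Expected counts were rounded, and 1 entry without a symbol (9.23e-06% of TKO and 9.29e-06% of WT counts) was left out. Totals were 10836855 counts in TKO and 10764519 in WT, so 3 counts, the floor behind a listed 0, are 0.277 CPM in TKO and 0.279 CPM in WT. CPM, ratios and exact conditional binomial intervals were computed with scipy 1.17.1 and tested on simulated data; PCR copies are not independent molecules. With 1 library per genotype, p-values were not calculated. The named genes were all members, and up to 4 genes farthest from equality in each further list with an interval excluding it. Not every gene that this rule names is reported here. Stromal markers and genes named for context beyond these were chosen after their values were seen. The alternatives were edgeR 4.0.16 TMM factors, DESeq2 1.42.0 size factors, the authors' FPKM, other additions, other filters and unrounded counts.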

Additional observations from a re-analysis of the deposited data

How the results depend on the processing

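The count of members below equality (41 or 42 of 48, and 30 of 36 at 10 CPM or more), the median log2 ratio (-0.34 to -0.29) and the Mcm7 log2 ratio (-0.30 to -0.25) kept their direction under TMM scaling, DESeq2 size factors, the authors' FPKM, additions of 0.1 and 2, both filters and unrounded counts. The odds ratio of Mcm7 among MCM2-7 was 1.00 from unrounded counts and from FPKM. Members with an interval above equality numbered 1 (Rfc3) with TMM scaling and 1 with DESeq2 size factors, and intervals below equality then numbered 25, without Lig1 and Pold2. Intervals were not computed for FPKM. At a mean of at least 10 CPM, 36 members were left and 1 (Tk1) was at least 1.5-fold lower, since the other 4 lie below that filter. Medians of the small licensing, replication protein A and chromatin groups moved in 9 cases and kept their sign. Medians that changed sign were those of the clamp and its loader (0.03 at 10 CPM or more, against -0.07), macrophage markers (0.02 with TMM and 0.0075 with DESeq2, against -0.03) and histones (0.18 with no filter, against -0.61). Orc1 missed the 1.5-fold call with TMM, DESeq2, FPKM and the addition of 2. An alternative chosen after seeing the data kept the 32 members with whole counts and under 10% of exonic bases shared with another gene: 29 were below equality, 18 had intervals below it, and the median was -0.37. No paired analysis was possible because each genotype has 1 library. Low counts leave wide intervals, as for Cdc6, Rpa3 and Pole2.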
